A study of Mus musculus with 753 samples.

Results

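S100 proteins and annexins are calcium-binding proteins of the epidermis, and 10 of their genes were followed here: S100a6, S100a8, S100a9, S100a10, S100a11, S100a14, S100a16, Anxa1, Anxa2 and Anxa8. They were chosen by name, with earlier results of these data known, from the 25001 genes of the combined expression table. The study asked how descendants of Gata6-expressing cells, which sit in the upper hair follicle and the sebaceous duct, compare with other keratinocytes while a skin wound closes. Single keratinocytes were flow sorted from mouse back epidermis and sequenced with Smart-seq2, a full-length method without molecular identifiers, so that reads are not independent molecules. All groups, unwounded skin included, came from adult mice of the strain Gata6EFGPCreERT2 Rosa26-fl/STOP/fl-tdTomato (Cre +/-, tdTomato +/-) given topical 4-hydroxytamoxifen before wounding. Lin+ cells carried tdTomato, which Cre driven by the Gata6 gene switches on permanently, and lin- cells did not. A lin- cell is therefore any sorted keratinocyte without the label, including a Gata6-expressing cell in which recombination failed.

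Both lineages were taken from wounds at day 6, day 9 and day 11 and from skin away from the wound, called day 0. A set was defined as the cells of 1 lineage, day and replicate, which gave 14 sets with 680 cells. Lin+ cells numbered 47 and 46 in the day 0 sets, 93 in the day 6 set, 42 and 44 in the day 9 sets and 32 and 47 in the day 11 sets. Lin- cells numbered 46 and 48 in the day 0 sets, 92 in the day 6 set, 27 and 44 in the day 9 sets and 26 and 46 in the day 11 sets. At day 9 and day 11 a replicate was 1 mouse, whereas the day 6 cells came from 3 mice per replicate whose replicate the labels do not give, so day 6 was 1 set per lineage and had no replicate check. The unwounded skin came from mice that also gave wounds, without a label that says which, so the spread between sets may hold less than the full spread between mice. Replicate 1 of days 0, 9 and 11 (batch 1) was deposited as counts and is given in CPM (counts per 1000000 counts of the cell). Replicate 2 and day 6 (batch 2) were deposited as RPKM and are given in TPM (per-length values that sum to 1000000 in a cell). Levels can therefore be compared between sets only within a batch, and between genes only per length.

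Median depth ran from 1806780 to 5972930 reads per cell across sets, and the median number of genes per cell from 1776 to 2308 at day 0, from 2089 to 2158 at day 6 and from 1943.5 to 3282 at days 9 and 11. The keratinocyte list (Krt5, Krt14 and other genes fixed for this check) had at least 11 of its 12 genes above 0 in every set, with a summed level of 14680 to 50252, so the label epidermis held. The neutrophil list summed to 0.037 to 47.5, the macrophage and monocyte list to 0.064 to 196, the T cell list to 0.033 to 76.8, the fibroblast list to 0.0062 to 22.6 and the endothelial list to 0 to 133. The Langerhans cell list, which includes the epithelial gene Epcam, summed to 163 to 3088 and was highest in lin+ cells at day 6. The melanocyte list stood at 6610 and 6522 TPM in lin- replicate 2 of day 9 and of day 11, and between 0 and 486 in the other 12 sets. Its level was above 1000 in 5 cells, 2 of each of those sets and 1 of the lin- set of day 6, none of which had a read of Krt14 or Krt5. The day 9 pair also held S100a8 reads. Reads of Ptprc, the pan-leukocyte gene encoding CD45, were found in 12 of 680 cells.

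S100 proteins are small EF-hand proteins that work mostly as dimers. S100A8 and S100A9 pair to form calprotectin, an antimicrobial, zinc- and manganese-binding complex that is abundant in neutrophils, is induced in injured epidermis and acts as an alarmin outside the cell. S100A10 is the partner of annexin A2, with which it forms a tetramer at the cell membrane, S100A11 binds annexin A1, and S100A6 (calcyclin) also binds annexin A2. Annexins bind acidic phospholipids in a calcium-dependent way: annexin A1 is a mediator of the resolution of inflammation and a substrate of the cornified envelope, annexin A2 takes part in membrane repair, endocytosis and plasminogen activation, and annexin A8 is an epithelial annexin of late endosomes. S100A14 and S100A16 are epithelial S100 proteins of less well-known function.

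All 7 S100 genes lie on mouse chromosome 3 (GRCm38.p6). S100a14, S100a16, S100a6, S100a8 and S100a9 lie between 90526849 and 90695721, and S100a11 and S100a10 between 93520496 and 93564645. Anxa2 lies on chromosome 9 at 69453683-69491792 and contains the microRNA gene Mir3109, Anxa8 on chromosome 14 at 34085979-34100571 and Anxa1 on chromosome 19 at 20373434-20390671. Anxa8 overlaps A630023A22Rik, and Smart-seq2 reads carry no strand, so its values may hold reads of that gene and are uncertain. RefSeq promoters (GRCm38.p6, 250 bases before to 50 after the annotated start) were found for 8 of the 10 genes. Those of the alarmin pair, which few cells expressed, and of S100a6 and Anxa2, the S100 gene and the annexin with the highest median level per length, are shown 5′ to 3′ in the direction of the gene, to set the start regions of the rarest and the most abundant members side by side. Capitals mark TATAAA and the AP-1-type motif TGANTCA, each searched on both strands.
S100a8 (chr3:90668821-90669120, + strand): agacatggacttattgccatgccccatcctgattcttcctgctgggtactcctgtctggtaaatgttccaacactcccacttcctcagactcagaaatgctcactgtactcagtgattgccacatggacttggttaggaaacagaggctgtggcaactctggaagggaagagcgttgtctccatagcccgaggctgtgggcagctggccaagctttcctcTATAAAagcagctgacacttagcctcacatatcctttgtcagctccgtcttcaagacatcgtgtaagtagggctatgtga
S100a9 (chr3:90695672-90695971, - strand): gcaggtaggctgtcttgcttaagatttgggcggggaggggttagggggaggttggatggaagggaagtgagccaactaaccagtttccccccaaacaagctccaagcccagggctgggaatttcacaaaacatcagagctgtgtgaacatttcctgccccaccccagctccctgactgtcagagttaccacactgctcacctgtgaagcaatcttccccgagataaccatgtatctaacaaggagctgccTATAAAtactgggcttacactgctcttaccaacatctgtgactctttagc
S100a6 (chr3:90612644-90612943, + strand): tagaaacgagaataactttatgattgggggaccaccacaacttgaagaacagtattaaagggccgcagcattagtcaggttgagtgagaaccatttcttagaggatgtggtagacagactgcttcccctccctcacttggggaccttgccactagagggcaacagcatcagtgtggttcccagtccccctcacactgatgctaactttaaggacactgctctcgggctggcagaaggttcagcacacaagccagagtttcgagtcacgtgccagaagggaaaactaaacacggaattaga
Anxa2 (chr9:69453433-69453732, + strand): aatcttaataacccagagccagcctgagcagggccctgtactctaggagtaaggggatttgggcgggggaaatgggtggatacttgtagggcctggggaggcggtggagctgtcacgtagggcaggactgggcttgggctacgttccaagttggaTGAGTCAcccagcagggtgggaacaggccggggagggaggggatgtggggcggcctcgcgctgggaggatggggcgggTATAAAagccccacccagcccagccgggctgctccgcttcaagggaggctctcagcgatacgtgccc

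TATAAA was found in the promoters of S100a8 (first base 30 bases before the annotated start), S100a9 (at the annotated start), Anxa1 (32 bases before) and Anxa2 (17 bases before), and in 13.6% of 32851 mouse promoters of the same length. TGANTCA was found in those of Anxa2, S100a11 (2 matches) and the second annotated start of S100a16, and in 7.81% of all promoters. The promoters of S100a6, of Anxa8 and of the first start of S100a16 held neither. No match of one motif can overlap one of the other, and a match describes letters only.

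Of the 10 genes 8 were widely expressed, whereas S100a8 and S100a9 were rare. Reads of Anxa2 were found in 609 of 680 cells (89.6%, exact 95% interval 87.0 to 91.8%), of S100a6 in 533 (78.4%), of S100a11 in 529 (77.8%), of Anxa1 in 520 (76.5%), of S100a16 in 500 (73.5%), of S100a14 in 485 (71.3%), of S100a10 in 484 (71.2%) and of Anxa8 in 462 (67.9%). Reads of S100a8 were found in 13 cells (1.91%, 1.02 to 3.25%) and of S100a9 in 6 (0.882%, 0.324 to 1.91%). These intervals cover counting error only. Per length, Anxa2 (median over the 14 sets 3136 TPM, range 1996 to 9125) and S100a6 (2902 TPM, 1380 to 5159) led, and both were among the first 3 of the 10 genes in every set. Their ranges overlapped, and they changed places between sets. S100a10 (1387 TPM, 655 to 2937) and S100a16 (1321 TPM, 769 to 1988) did not separate either. Anxa8 (832 TPM, 293 to 2256), S100a11 (699 TPM, 517 to 1672) and S100a14 (498 TPM, 256 to 628) came below. Anxa1 had no stable place: it ranged from 267 to 898 TPM in batch 1, where it was between the sixth and the eighth, and from 1007 to 3849 TPM in days 0, 9 and 11 of batch 2, where it was among the first 3. S100a10 was instead higher in batch 1 (1444 to 2421 TPM per length) than in days 0, 9 and 11 of batch 2 (655 to 1329 TPM), so levels of a gene were not compared across batches.

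**Figure D1:**
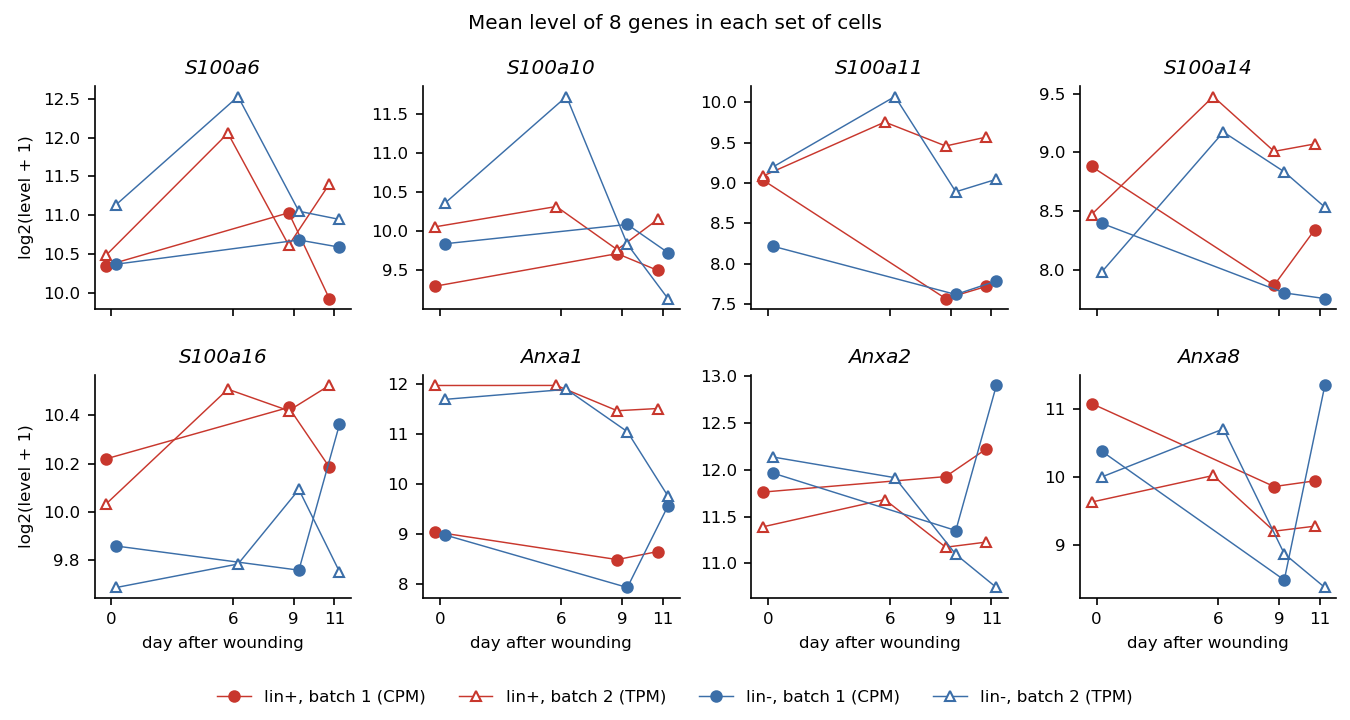
Mean level of 8 genes in each of the 14 sets, as log2(level + 1) against the day after wounding; red marks lin+ and blue lin- sets, filled circles batch 1 (CPM) and open triangles batch 2 (TPM). The day 6 triangles of S100a6 (4259 TPM in lin+ and 5913 TPM in lin- cells) stand above all other sets of that gene, and Anxa1 is split by batch.

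S100a6, which encodes calcyclin, a protein named for its cell-cycle-regulated expression, had its highest batch 2 mean at day 6 in both lineages, but its highest median over cells there in lin+ cells alone. In lin+ cells it averaged 1306 CPM and 1433 TPM at day 0, 4259 TPM at day 6, 2092 CPM and 1565 TPM at day 9, and 972 CPM and 2705 TPM at day 11. In lin- cells it averaged 1322 CPM and 2253 TPM at day 0, 5913 TPM at day 6, 1641 CPM and 2121 TPM at day 9, and 1539 CPM and 1972 TPM at day 11. Within batch 2 both day 6 sets were above every set of the other days, while days 9 and 11 overlapped day 0. In lin- cells 1 cell of the day 6 set, at 173173 TPM before the sets were scaled to each other, gave 36.5% of the summed level, and in lin+ cells the highest cell gave 4.7%. The median over the cells of the batch 2 sets was 905 TPM at day 0, 2628 TPM at day 6, 1276 TPM at day 9 and 2278 TPM at day 11 in lin+ cells. In lin- cells it was 1801 TPM at day 0, 1953 TPM at day 6, 1972 TPM at day 9 and 1562 TPM at day 11. The day 6 median thus did not stand out in lin- cells. In limma, the day 6 level was higher than that of day 0 by 1.41 on the log2 scale in lin+ cells (SE 0.49, 95% interval 0.36 to 2.47, adjusted p = 0.99981) and by 1.55 in lin- cells (SE 0.49, 0.50 to 2.60, adjusted p = 0.639). Day 6 is 1 set per lineage, so the errors of this and of all other differences with day 6 come from the spread of the other sets and hold no spread of day 6 itself. Neither passed the threshold of 0.05, and only 1 of 10473 genes (0.00955%) passed in lin+ and 2 (0.0191%) in lin- cells. With each set averaged without its highest cell, an alternative chosen after seeing the data, the differences were 1.56 in lin+ and 1.06 in lin- cells, and in cells of the basal interfollicular identity alone they were 1.33 and 1.95.

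S100a10, which encodes the annexin A2 partner p11, stood out at day 6 in lin- cells. In lin+ cells it averaged 627 CPM and 1061 TPM at day 0, 1271 TPM at day 6, 837 CPM and 867 TPM at day 9, and 722 CPM and 1135 TPM at day 11. Lin- cells averaged 914 CPM and 1308 TPM at day 0, 3367 TPM at day 6, 1085 CPM and 910 TPM at day 9, and 845 CPM and 562 TPM at day 11. The lin- set of day 6 lay above all others of batch 2, and the lin+ set of day 6 lay close to the lin+ sets of day 0 and day 11 of that batch. The difference of day 6 from day 0 was 1.53 in lin- (SE 0.48, 0.49 to 2.57, adjusted p = 0.639) and 0.54 in lin+ cells (SE 0.48, -0.50 to 1.59, adjusted p = 0.99981). Days 9 and 11 together, called late wounds, lay below day 6 in lin- cells (log2 difference -1.93, SE 0.44, interval -2.88 to -0.97, adjusted p = 0.439), the smallest unadjusted p of all 81 tests of these genes (0.000796), and below it in lin+ cells (-0.44, SE 0.44, -1.39 to 0.52). DESeq2 on the reads summed over the cells of a set gave -1.33 for the lin- difference (adjusted p = 0.212). Over the alternatives that kept every mouse set and the batch term, that difference ran from -2.03 to -0.06. The share of lin- cells with an S100a10 read was instead higher in late wounds (79.4%) than at day 6 (70.6%), at equal depth. The melanocyte list was at 486 TPM in the lin- set of day 6 and at 6610 and 6522 TPM in the batch 2 lin- sets of day 9 and day 11. Without the 5 cells high in it, an alternative chosen after seeing the data, the S100a10 difference was -1.92. S100a6 gave -1.49 in lin- (SE 0.45, adjusted p = 0.703) and -1.09 in lin+ cells (SE 0.45, adjusted p = 0.999862) for the same comparison, in which 2 of 10473 genes (0.0191%) passed in each lineage.

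S100a11, whose product binds annexin A1 and is incorporated into the cornified envelope, had its highest batch 2 level at day 6 in each lineage. In lin+ cells it averaged 524 CPM and 543 TPM at day 0, 864 TPM at day 6, 189 CPM and 703 TPM at day 9, and 210 CPM and 759 TPM at day 11. The lin- averages were 297 CPM and 588 TPM at day 0, 1075 TPM at day 6, 196 CPM and 474 TPM at day 9, and 220 CPM and 528 TPM at day 11. In lin+ cells the replicates moved in opposite directions, with days 9 and 11 at -1.39 against day 0 in replicate 1 and at 0.43 in replicate 2, so the fitted difference of -0.48 (SE 0.40) describes neither. S100a14 also had opposite directions in the replicates: in lin+ cells it averaged 470 CPM and 354 TPM at day 0, 711 TPM at day 6, 233 CPM and 514 TPM at day 9, and 323 CPM and 537 TPM at day 11. In lin- cells it averaged 336 CPM and 252 TPM at day 0, 576 TPM at day 6, 222 CPM and 455 TPM at day 9, and 215 CPM and 369.6 TPM at day 11. Days 9 and 11 stood at -0.77 (replicate 1) and 0.57 (replicate 2) against day 0 in lin+ cells. The lin- values were -0.62 and 0.70. The direction of S100a14 between late wounds and unwounded skin thus differed between the batches in both lineages. The batches differ in their mice and in the unit of the values. The length of a gene is the same in all sets of a batch, so it has almost no part in these differences within a batch. What other differences between the batches do to these values was not tested.

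The mean level of S100a16 varied by less than a doubling between the days of a batch in each lineage, while its median over cells varied more in lin- cells. In lin+ cells it averaged 1192 CPM and 1047 TPM at day 0, 1456 TPM at day 6, 1382 CPM and 1369 TPM at day 9, and 1164 CPM and 1472 TPM at day 11. Lin- cells averaged 928 CPM and 823 TPM at day 0, 881 TPM at day 6, 865 CPM and 1091 TPM at day 9, and 1316 CPM and 862 TPM at day 11. The median over cells was 550 CPM and 892 TPM at day 0, 922 TPM at day 6, 1297 CPM and 1182 TPM at day 9, and 1211 CPM and 1501 TPM at day 11 in lin+ cells. In lin- cells the median was 111 CPM and 8.14 TPM at day 0, 31.8 TPM at day 6, 789 CPM and 698 TPM at day 9, and 1099 CPM and 598 TPM at day 11. Both late days were above day 0 in each batch. By mean level, days 9 and 11 differed from day 0 by 0.26 in lin+ (SE 0.29, -0.36 to 0.89) and by 0.22 in lin- cells (SE 0.29, -0.40 to 0.84). Day 6 differed from day 0 by 0.41 in lin+ (SE 0.42, -0.50 to 1.31) and by 0.037 in lin- cells (SE 0.42, -0.87 to 0.94), and the first of these intervals reaches past 1, a doubling on this scale.

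Among the annexins, Anxa1 averaged 526 CPM and 3996 TPM at day 0, 3998 TPM at day 6, 358 CPM and 2817 TPM at day 9, and 399.9 CPM and 2905 TPM at day 11 in lin+ cells. The lin- averages were 504 CPM and 3296 TPM at day 0, 3789 TPM at day 6, 243 CPM and 2107 TPM at day 9, and 752 CPM and 864 TPM at day 11. In batch 2 its day 9 and day 11 levels were below those of day 0 and day 6 in both lineages, while in batch 1 the lin- set of day 11 was above that of day 0. Anxa2 averaged 3472 CPM and 2685 TPM at day 0, 3285 TPM at day 6, 3894 CPM and 2308 TPM at day 9, and 4777 CPM and 2397 TPM at day 11 in lin+ cells. In lin- cells it averaged 3993 CPM and 4499 TPM at day 0, 3862 TPM at day 6, 2612 CPM and 2189 TPM at day 9, and 7647 CPM and 1713 TPM at day 11. The lin- sets of day 11 were thus the highest of batch 1 and the lowest of batch 2. Anxa8 averaged 2171 CPM and 793 TPM at day 0, 1041 TPM at day 6, 929.8 CPM and 589 TPM at day 9, and 985 CPM and 620.0 TPM at day 11 in lin+ cells. Lin- cells averaged 1334 CPM and 1025 TPM at day 0, 1675 TPM at day 6, 358 CPM and 468 TPM at day 9, and 2610.2 CPM and 331 TPM at day 11. A single cell gave 36.0% of the Anxa8 sum of lin- cells at day 6.

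Anxa8 was lower at days 9 and 11 than at day 0 in both lineages on average, at -0.79 in lin+ (SE 0.51, -1.90 to 0.33, adjusted p = 0.619) and -0.92 in lin- cells (SE 0.51, -2.03 to 0.19, adjusted p = 0.469), and lower than at day 6 in lin- cells, at -1.92 (SE 0.69, -3.40 to -0.43) with an unadjusted p of 0.015. None of these passed. Without each set's highest cell the last value was -1.56, in DESeq2 it was -1.13, and without the cells high in melanocyte genes it was -1.90. Anxa1 stood at -0.48 in lin+ (SE 0.49, -1.55 to 0.59) and -0.76 in lin- cells (SE 0.49, -1.83 to 0.31) in late wounds against day 0, and Anxa2 at 0.06 (SE 0.37, -0.75 to 0.87) and -0.53 (SE 0.37, -1.34 to 0.28). Each annexin had an interval that reached below -1, a halving, in lin- cells, so a change of that size lies within what these sets allow.

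**Figure D2:**
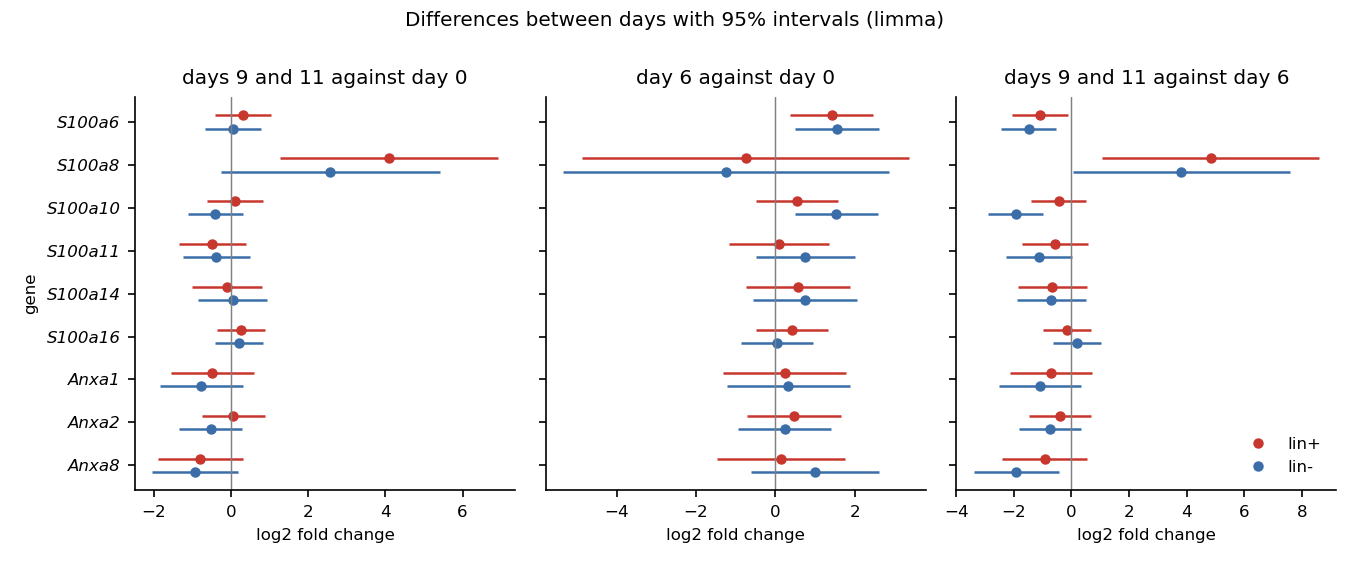
Log2 differences of 9 genes between days with 95% intervals from limma, in late wounds (days 9 and 11) against day 0, day 6 against day 0 and late wounds against day 6; red marks lin+ and blue lin- cells. Most intervals cross 0 and those of S100a8 are the widest. Day 6 is 1 set per lineage, so the intervals of its differences (1.41 and 1.55 for S100a6 against day 0) rest on the spread of the other sets.

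Of the 81 tests (9 genes in 9 comparisons, S100a9 being too low to be tested), none passed, and 11 had an unadjusted p below 0.05. The 81 include the S100a8 lineage test in unwounded skin, which had no reads in either lineage and could not pass. For late wounds against day 0 the share of all genes that passed was 0.0955% in lin+ cells (10 of 10473) and 0.181% in lin- cells (19 of 10473), so the 0 of 9 members is not set apart from the other genes. The median log2 difference of the 9 genes was 0.06 in lin+ and -0.37 in lin- cells, beside 0.15 and 0.10 over all genes tested. It was 0.41 and 0.75 for day 6 against day 0, beside 0.11 and 0.11 over all genes, and -0.57 and -1.09 for late wounds against day 6, beside 0.06 and 0.01. The comparisons with day 6 share the day 6 sets, and those with day 0 share the day 0 sets. Averaging log2 values over cells in place of logging the average let several members pass in late wounds against day 0: S100a14 (2.35), S100a16 (2.22), S100a6 (2.14), S100a10 (2.12) and Anxa2 (1.85) in lin+, and S100a16 (2.29) and S100a14 (1.60) in lin- cells. That setting shifted the median of all genes to 1.57 in lin+ and 1.60 in lin- cells and passed 1062 and 1110 of 1870 genes, while the number of genes per cell was higher in most late wound sets.

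**Figure D3:**
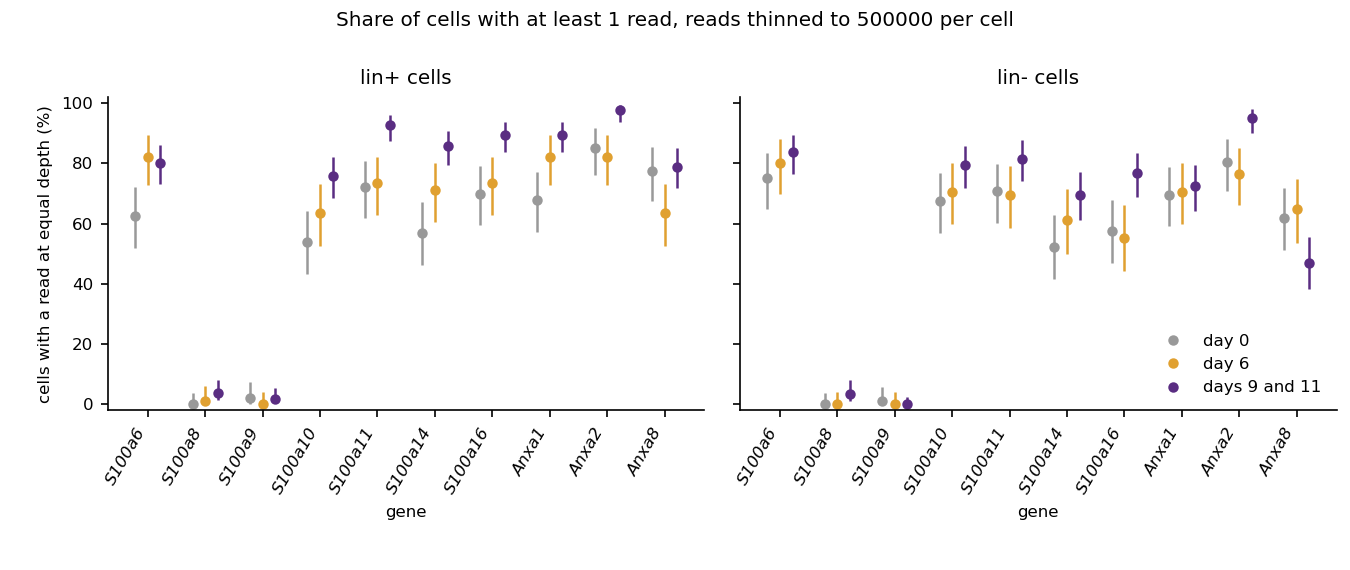
Share of cells with at least 1 read of each gene after thinning every cell to 500000 reads, for lin+ and lin- cells, with exact 95% intervals over cells; grey marks day 0, orange day 6 and purple days 9 and 11. S100a8 and S100a9 stay below 4%. The purple points of S100a10, S100a11, S100a14, S100a16, Anxa1 and Anxa2 stand above their grey and orange points in both panels.

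The share of cells with a read was compared at equal depth, after thinning to 500000 reads in the 662 cells that reach it. In lin+ cells S100a16 was read in 69.9% of cells at day 0 (exact 95% interval 59.5 to 79.0%), 73.3% at day 6 (63.0 to 82.1%) and 89.4% at days 9 and 11 (83.6 to 93.7%), and unthinned in 69.9%, 73.1% and 88.5%. In lin- cells it was read in 57.6% (46.9 to 67.9%), 55.3% (44.1 to 66.1%) and 76.6% (68.7 to 83.3%), unthinned in 60.6%, 54.3% and 79.7%. The late wound shares were above those of day 0 in both lineages, on the same side as its mean level. The intervals count cells and hold no spread between mice. In lin+ cells S100a14 was read in 57.0%, 71.1% and 85.7% (79.3 to 90.7%) of cells, and Anxa2 in 84.9%, 82.2% and 97.5% (93.8 to 99.3%), unthinned in 63.4%, 75.3% and 86.7% and in 88.2%, 84.9% and 97.0%. In lin- cells they were read in 52.2%, 61.2% and 69.5% and in 80.4%, 76.5% and 95.0%, unthinned in 56.4%, 59.8% and 73.4% and in 86.2%, 77.2% and 95.1%. The share of S100a11 in lin+ cells was 72.0%, 73.3% and 92.5%, unthinned 73.1%, 73.1% and 91.5%, which runs against its fitted mean level in late wounds. That of Anxa1 was 67.7%, 82.2% and 89.4%, unthinned 68.8%, 80.6% and 89.1%, against a fitted level below day 0, so no order is read from either. Anxa8 in lin- cells was read in 62.0% at day 0, 64.7% at day 6 and 46.8% (38.4 to 55.4%) at days 9 and 11, unthinned in 69.1%, 63.0% and 51.7%, on the same side as its mean. In lin+ cells it was read in 77.4%, 63.3% and 78.9%, unthinned in 80.6%, 65.6% and 78.2%, and so was not read less often in late wounds, where its fitted mean was lower. The share of S100a10 in lin+ cells was 53.8%, 63.3% and 75.8%, unthinned 57.0%, 65.6% and 77.0%, beside a fitted late wound difference of 0.11 from day 0. The share in lin- cells was 67.4%, 70.6% and 79.4%, unthinned 67.0%, 68.5% and 81.8%. It runs against the fitted difference of -0.40, so no order is read from it. Cells of a set are not replicates, and the number of genes per cell, which was up to 3282 in late wound sets against at most 2308 at day 0, moved with these shares; its part in them was not tested.

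S100a8 reads were seen in wounds alone, and in few cells. It averaged 0.423 TPM at day 6, 24.0 CPM and 172 TPM at day 9, and 0 CPM and 18.3 TPM at day 11 in lin+ cells, against 0 in both sets of day 0. In lin- cells it averaged 0.012 TPM at day 6, 1.16 CPM and 66.4 TPM at day 9, and 0 CPM and 7.75 TPM at day 11, against 0 in both sets of day 0. Reads were found in 7 of 258 lin+ wound cells (2.71%, exact 95% interval 1.10 to 5.51%) and 6 of 235 lin- wound cells (2.55%, 0.943 to 5.47%), with 13 of 493 wound cells in all (2.64%, 1.41 to 4.47%), against 0 of 187 unwounded cells, which allows a share of up to 1.60% (3 counts of the total). The interval in wounds and that limit overlap. The fitted difference of late wounds from day 0 was 4.09 in lin+ (SE 1.31, 1.26 to 6.91, adjusted p = 0.321) and 2.58 in lin- cells (SE 1.31, -0.25 to 5.40, adjusted p = 0.427), and since day 0 had no reads its size depends on the added 1 and is no estimate of a fold. S100a8 passed the filter on low values only through the wound sets. A single cell carried 100% of the sum in 5 sets, and at least 30.5% in the others with reads. Without each set's highest cell the differences fell to 0.95 and 1.13, DESeq2 on summed reads called both (adjusted p = 0.00424 in lin+ and 0.0247 in lin- cells), and edgeR called neither (0.746 and 0.583). Of all genes, DESeq2 called 1395 of 14804 in lin+ and 1524 of 14804 in lin- cells in these comparisons. With edgeR the counts were 1 and 3 of 15893, so the calls of S100a8 are not set apart from those of other genes. In lin- cells the S100a8 sum of replicate 2 of day 9 came from 2 cells, at 2731 and 722 TPM, that had no Krt14 or Krt5 read. They stood at 157371 and 132813 TPM for the melanocyte list. Without the 5 cells high in melanocyte genes the difference was 1.07 in lin- cells (adjusted p = 0.763) and 4.09 in lin+ cells.

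S100a9 reads were seen in 3 of 493 wound cells (0.609%, 0.126 to 1.77%) and 3 of 187 unwounded cells (1.60%, 0.332 to 4.62%). It averaged 0.081 CPM in lin+ and 0.084 CPM in lin- replicate 1 of day 0, 7.59 CPM and 11.5 TPM in the lin+ sets of day 11, and 0 in the other 10 sets. The 2 calprotectin subunit genes were read together in 1 of 680 cells, a lin+ cell of day 11 with the identity uHF-II, at 242 TPM for S100a8 and 578 TPM for S100a9. The 3 cells with the most S100a8 had 7495 TPM (lin+, day 9, basal interfollicular), 2731 TPM (lin-, day 9, outer bulge) and 977 CPM (lin+, day 9, uHF-I), with 1229, 1900.0 and 4380.0 reads, and the lowest of the 13 had 1 read.

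Neutrophils express both genes strongly. The study labelled the cells for CD45 at the sort and analysed the CD45- fraction. The 13 cells with S100a8 reads were checked for leukocyte genes. None had a read of Ptprc or of the myeloid integrin gene Itgam (0 of 13, which allows a share of up to 23.1% by the same limit). Of the 12 neutrophil genes fixed for this check 10 were in the table, and Ly6g, Mpo, Elane, Ngp, Camp, Csf3r, Cxcr2 and Mmp9 had no read in any of these cells. Each of these genes was read in only 2 (Camp) to 23 (Cxcr2) of all 680 cells, Itgam in 6 and Ptprc in 12. Most other cells thus lack these reads too, and the origin of the 13 cells was not tested. Ltf was read in 7 of the 13, as it was in 356 of all 680 cells. Reads of the basal keratin genes Krt14 or Krt5 were found in 11 of the 13 (84.6%, 54.6 to 98.1%), against 653 of all 680 cells (96.0%), and the 2 without them were the day 9 cells high in melanocyte genes. The deposited identity of basal interfollicular epidermis was given to 10 of the 13 (76.9%, 46.2 to 95.0%), against 259 of 493 wound cells (52.5%, 48.0 to 57.0%). These 10 include the lin- day 9 cell at 722 TPM of S100a8, which was high in melanocyte genes and had no Krt14 or Krt5 read.

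Lin+ and lin- cells were compared within mouse sets, since both came from the same skin. S100a16 and S100a14 were on average higher in lin+ cells, without passing the test. The lin+ level of S100a16 was above its lin- level in 4 of 5 wound mouse sets, by 0.72 at day 6, 0.67 and 0.33 at day 9 and 0.77 in replicate 2 of day 11, and stood at -0.18 in replicate 1 of day 11. The lineages differed by 0.46 in wounds (SE 0.17, 0.09 to 0.84, adjusted p = 0.542) and by 0.35 in unwounded skin (SE 0.27, -0.24 to 0.95, adjusted p = 0.569). The share of all genes that passed was 0.267% in wounds (28 of 10473) and 0.458% in unwounded skin (48 of 10473), and no member was among them. S100a14 was higher in lin+ cells in 5 of 5 wound and 2 of 2 unwounded mouse sets, by 0.07 to 0.59 in wounds, with fitted differences of 0.33 (SE 0.18, -0.06 to 0.73, adjusted p = 0.784) and 0.49 (SE 0.28, -0.13 to 1.11, adjusted p = 0.450). In basal interfollicular cells alone the S100a16 difference was 0.19 in wounds and -0.35 in unwounded skin, and that of S100a14 was -0.11 in wounds and 0.18 in unwounded skin. The S100a14 difference in wounds also changed sign, to -0.50, when the 4 cells with under 200 genes were kept. All 4 were lin- cells, with 5 to 1014 reads each, scaled to the same total as every other cell. Averaging log2 values over cells gave 1.60 for S100a16 in wounds, which passed (adjusted p = 0.0285). That setting passed 82 of 1870 genes in this comparison. The upper follicle list summed to 18887 to 37164 in lin+ sets and 2423 to 14524 in lin- sets, which did not overlap, so the 2 lineages also differed in the cells they held, and the part of that difference in the levels of S100a16 and S100a14 was not tested beyond the basal interfollicular values above.

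No other member passed either. S100a6 was higher in lin+ cells in 2 of 5 wound sets and in 0 of 2 unwounded sets (fitted -0.15, SE 0.19, in wounds and -0.33, SE 0.30, in unwounded skin), and S100a10 in 1 of 5 and 0 of 2 (-0.21, SE 0.27, and -0.42, SE 0.43). Anxa1 was higher in lin+ cells in 4 of 5 wound sets, by 1.75 in replicate 2 of day 11, and stood at -0.91 in replicate 1 of day 11. It was also higher in 2 of 2 unwounded sets, the same counts as those of S100a16. Its fitted differences were 0.38 (SE 0.29) in wounds and 0.17 (SE 0.46) in unwounded skin. Anxa2 was higher in 3 of 5 and Anxa8 in 3 of 5 wound sets, and S100a11 in 2 of 5. S100a8 was higher in lin+ cells in 4 of 5 wound sets, and differed by 1.31 in wounds (SE 0.72, -0.29 to 2.90, adjusted p = 0.790), a value that was -0.14 without each set's highest cell and 2.51 without the cells high in melanocyte genes. No member differed in its lineage difference between wounds and unwounded skin past the threshold, where 0.0191% of all genes (2 of 10473) passed, with values of 1.31 for S100a8 (SE 1.35), 0.52 for Anxa2 (SE 0.34) and between -0.22 and 0.21 for the other 7. S100a8 had no reads in unwounded skin of either lineage, so its lineage test there was fixed at 0 and its 1.31 repeats the wound value.

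The deposited table also gives each cell an identity, which was assigned from the expression of the same cells, so levels by identity are a description with no test. There were 3 identities with at least 5 cells in all 7 mouse sets, named IFE-B (basal interfollicular epidermis), OB (outer bulge) and uHF-I (upper hair follicle). Both lineages are pooled in these levels, and their shares differed between identities: uHF-I held 96 lin+ and 19 lin- cells, OB 31 and 90, and IFE-B 176 and 193. The 5 lin- cells high in melanocyte genes were kept under their deposited identities, OB or IFE-B. S100a6 was highest in OB cells, where it averaged 3766 to 7619 TPM per length over the 7 mouse sets, against 1807 to 4600 TPM in IFE-B cells and 607 to 3247 TPM in uHF-I cells. OB exceeded IFE-B in 7 of 7 mouse sets, by a median of 0.92 on the log2 scale (range 0.73 to 1.44), and uHF-I lay below OB in 7 of 7 by mean and in 6 of 7 by median over cells. Within lin- cells alone OB exceeded IFE-B in 7 of 7 (median 1.10, 0.23 to 1.25), and within lin+ cells in the 2 sets with at least 5 cells of each. S100a16 ran the other way: it averaged 1226 to 3400 TPM in uHF-I, against 892 to 1740 TPM in IFE-B and 385 to 1665 TPM in OB cells, and uHF-I exceeded IFE-B (median 0.72, 0.29 to 1.86) and OB (1.83, 0.52 to 2.16) in 7 of 7. Within lin+ cells alone uHF-I exceeded IFE-B in 7 of 7 (median 0.70, 0.31 to 2.07). Within 1 lineage uHF-I and OB could be compared in 2 lin+ sets, with S100a16 higher in uHF-I in both. In the lin- set of day 6 the difference was -0.43.

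S100a14 and S100a11 were both lowest in OB cells in most mouse sets. S100a14 averaged 249 to 893 TPM in uHF-I cells, against 33 to 397 TPM in OB cells (uHF-I higher in 7 of 7 by mean, median 1.47, 0.37 to 3.71, and in 6 of 7 by median over cells), and lay below IFE-B in OB cells in 7 of 7. In the lin- set of day 6 alone S100a14 was instead lower in uHF-I than in OB cells, at -1.39. S100a11 was higher in uHF-I than in OB cells in 7 of 7 (median 0.88, 0.11 to 1.43) and lower in OB than in IFE-B cells in 6 of 7. S100a10 was lower in uHF-I than in IFE-B cells in 6 of 7 mouse sets (median -1.26, -2.79 to 0.07). Anxa2 was likewise higher in uHF-I than in IFE-B cells in only 1 of 7 by mean (median -0.30, -1.56 to 0.31), and in 3 of 7 by median over cells. Anxa1 showed no such order, with uHF-I above IFE-B in 4 of 7 (median 0.0032). Anxa8 was higher in uHF-I than in IFE-B cells in 5 of 7 (median 0.50). Sebaceous gland cells (SG, 2 mouse sets with at least 5 cells) had less S100a6 than IFE-B cells in both, with log2 differences of -1.48 and -3.66. OB cells numbered 6 to 37 and uHF-I cells 7 to 31 per mouse set, so single cells weigh much in these means.

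**Figure D4:**
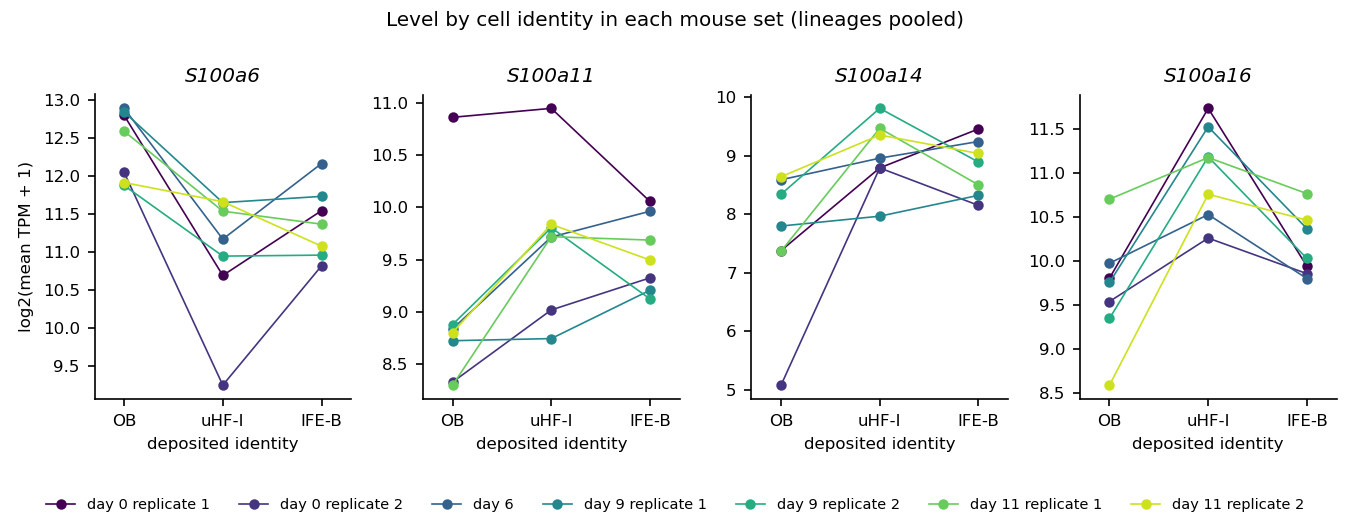
Level of S100a6, S100a11, S100a14 and S100a16 in cells of the identities OB, uHF-I and IFE-B, as log2(mean TPM + 1) per length with both lineages pooled; each line is 1 of the 7 mouse sets. Every line falls between OB and uHF-I for S100a6 and rises between them for the other 3 genes.

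Across the cells of a set, which share a library preparation and its depth, the members were weakly to moderately correlated. Spearman's rho of S100a10 with Anxa2 had a median of 0.39 over the 14 sets (0.06 to 0.65), of S100a6 with S100a10 0.39 (0.10 to 0.66), of S100a11 with Anxa1 0.30 (0.04 to 0.80) and of S100a6 with Anxa2 0.24 (-0.02 to 0.63). Other pairs were in the same range, with S100a11 and Anxa2 at 0.43 (0.07 to 0.55), Anxa1 and Anxa2 at 0.40 (0.15 to 0.68) and S100a14 and S100a16 at 0.32 (0.08 to 0.49). Some pairs had a median near 0, such as S100a6 with S100a14 (-0.07, -0.32 to 0.30) and S100a10 with S100a16 (-0.0011, -0.49 to 0.32). S100a8 and S100a9 were in too few cells for a correlation.

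**Figure D5:**
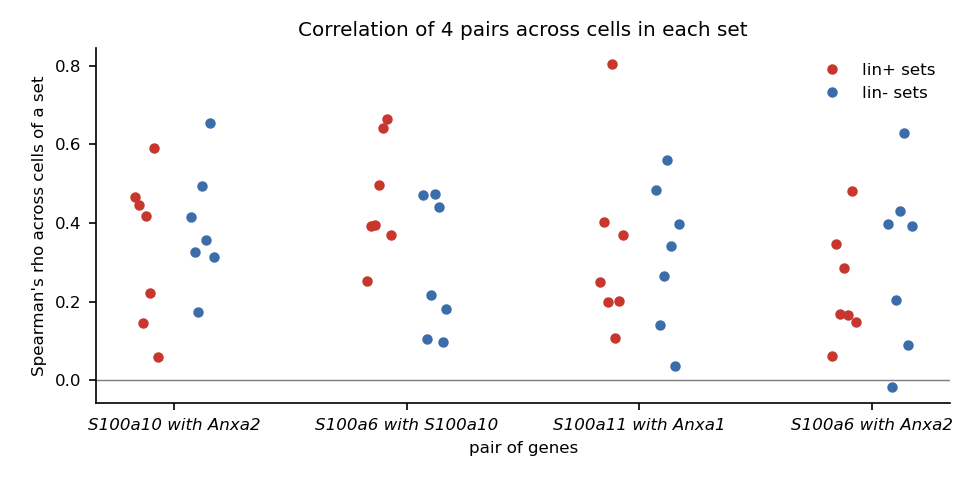
Spearman's rho of 4 pairs of genes across the cells of each set, in lin+ (red) and lin- (blue) sets. The points of each pair spread widely, from 0.06 to 0.65 for S100a10 with Anxa2 and from 0.04 to 0.80 for S100a11 with Anxa1, and the 2 lineages overlap.

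Over the 14 sets, after the batch mean was subtracted, the 3 annexins went together, with Pearson's r of 0.85 for Anxa1 and Anxa8, 0.80 for Anxa2 and Anxa8 and 0.76 for Anxa1 and Anxa2. S100a11 and S100a14 had 0.76 and S100a6 and S100a10 0.73, and S100a8 was between -0.52 and 0.43 with every other member. The points share depth and cell makeup, and r is given as a description. Of all genes tested, S100a6 was most like the ribosomal protein genes Rps19 (0.94) and Rps14 (0.92) and Mir682 (0.90), S100a10 like Cavin3 (0.91), Gm10132 (0.86) and Rps27 (0.86), and S100a11 like Eloc (0.94) and 2 identifiers with no name in the table (0.91 each). S100a14 was most like Gm4963 (0.89), Gm6988 (0.88) and Dhx9 (0.88), S100a16 like Pstpip2 (0.84), Gm8909 (0.81) and Aqp3 (0.80), and S100a8 like Rbp7 (0.94), Tmem241 (0.83) and D3Ertd751e (0.83). Anxa1 was most like Dnase1l1 (0.88), Zbtb7b (0.87) and Ctsh (0.86), Anxa2 like Gnai1 (0.88), Actg1 (0.87) and Ifngr1 (0.86), and Anxa8 like Arfgap3 (0.87), Ahnak2 (0.86) and Gm12174 (0.85).

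Other genes of these families and pathways were counted from 5 fixed lists. Of 12 other S100 genes 4 were high enough to be tested (S100a1, S100a3, S100a4 and S100a13), and none passed in any of the 9 comparisons. Of 9 other annexins 7 were tested and none passed, with Anxa5 read in 389 and Anxa4 in 351 of 680 cells. Of 14 genes of the epidermal differentiation complex, the chromosome 3 cluster of barrier genes that holds the S100 genes, 5 were tested and 1 passed: Ivl (involucrin, a cornified envelope precursor) was higher in lin+ than in lin- cells of unwounded skin by 6.58 (SE 1.10, adjusted p = 0.0394), and not in basal interfollicular cells alone (2.14, adjusted p = 0.552). It did not pass either in edgeR (0.245), without the block (0.104), or without the mouse set of day 0 replicate 1 (0.115), day 6 (0.0855), day 9 replicate 1 (0.0775) or day 11 replicate 2 (0.0892). Of 18 receptors and partners 8 were tested and none passed. The alarmin receptor genes Ager and Tlr4 were read in 6 and 3 of 680 cells, the annexin A1 receptor genes Fpr1 and Fpr2 in 3 and 2, the S100A9 receptor gene Bsg in 440.0, and Ahnak, which encodes a large partner of S100A10 and annexin A2, in 611. Of 13 antimicrobial and alarmin genes 5 were tested and 1 passed: Defb6, a beta-defensin of the upper follicle and a gene of the marker list for it, was higher in lin+ than in lin- wound cells by 4.28 (SE 0.68, adjusted p = 0.0354), and not in basal interfollicular cells alone (3.88, adjusted p = 0.57). It did not pass either in edgeR (0.551), without the block (0.082), without a filter on low values (0.596), or without the mouse set of day 0 replicate 2 (0.0519), day 6 (0.106), day 9 replicate 2 (0.195) or day 11 replicate 2 (0.117). Il33 was read in 114 and Hmgb1 in 617 of 680 cells, against 7 for Lcn2 and 6 for Il1a.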

How the data were processed

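Single-cell Smart-seq2 libraries of 753 samples were sequenced, of which the deposited annotation keeps 684 cells. The authors trimmed, aligned to GRCm38/mm10 and counted reads per RefSeq gene, and the submitters' processing notes name Trimmomatic 0.27, STAR 2.2, featureCounts and Seurat 3.2.2. The authors deposited a combined table that holds raw counts for the 222 cells of batch 1 and RPKM (reads per kilobase of gene per 1000000 reads) for the 462 cells of batch 2. Cells with fewer than 200 genes (4 cells, a limit the study states) were left out, and 680 remained. Values were scaled to an equal total in every cell (CPM or TPM) and set means were taken, which median-of-ratios factors per batch then made comparable. Batch 1 and 2 values were put on 1 per-length scale with gene lengths found from cells deposited in both units (17619 genes), and reads of batch 2 were recovered from the RPKM steps: whole reads were recovered to within 0.02 for 99.99% of values below 200 reads (lowest cell 99.7%), which gave reads of 16394 genes for edgeR and DESeq2.

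The main test was limma (version 3.58.1, R 4.3.3, trend) on log2(level + 1) over all 14 sets, for genes with a level of at least 10 in at least 2 sets (10473 genes), with Benjamini-Hochberg adjustment over all of them and a threshold of 0.05. Days were compared with lineage-by-day terms and batch, and lineages with mouse set as block. The pairing comes from the labels, since both lineages of a replicate were sorted from the same skin, and the deviations of same-numbered lin+ and lin- sets from their group means correlated at -0.22 to -0.0094. Fold changes on this scale understate those of low genes. edgeR 4.0.16 (quasi-likelihood) and DESeq2 1.42.0 on summed reads, another pseudocount, no filter, thinning, averaging of log2 values, basal cells alone, removal of cells with Ptprc reads and leaving out each mouse set were alternatives, and 3 more (all annotated cells, each set without its highest cell, and removal of the 5 cells with a melanocyte list level above 1000) were chosen after seeing the data. The scripts were tested on simulated data. The 10 members are all named. Of each list up to 4 genes per comparison are named by size of change among those that passed with a level of at least 20, and for each member the 3 genes with the highest Pearson's r. List genes named for their cells with a read were chosen after their values were seen. The members and lists were chosen with earlier results of these data known. Blank wells and 988 per-sample columns were not used here, and a per-cell log table and a repeated count table were left out because they repeat the combined table.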

Additional observations from a re-analysis of the deposited data

How the results depend on the processing

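None of the 81 tests of the members passed as reported, and 10 of 1575 recomputed under 20 alternatives did, those given above. Averaging log2 values over cells turned S100a14 in lin+ late wounds against day 0 round, to 2.35 in place of -0.10, with the median of all genes at 1.57. The fitted sign of 48 of the 81 uncalled differences changed under at least 1 alternative, among them that averaging and the fits without a mouse set. The share of such changes over all genes was not counted, so the 48 is not read as a trait of these members. Counts of all genes past the threshold, as reported, were 10 for lin+ late wounds against day 0, 19 for lin- late wounds against day 0, 1 for lin+ day 6 against day 0, 2 for lin- day 6 against day 0, 2 for lin+ late wounds against day 6, 2 for lin- late wounds against day 6, 48 for lin+ against lin- in unwounded skin, 28 for lin+ against lin- in wounds, 2 for lineage difference in wounds against unwounded skin. In the alternatives below, a comparison is named where its count moved past a fixed ratio of these counts. Those not named stayed close to them. With a pseudocount of 10 in place of 1, the counts were 1 for lin+ late wounds against day 0, 11 for lin- late wounds against day 0, 0 for lin+ day 6 against day 0, 9 for lin- day 6 against day 0, 1 for lin+ late wounds against day 6, 20 for lin- late wounds against day 6, 4 for lin+ against lin- in unwounded skin, 0 for lineage difference in wounds against unwounded skin. With no filter on low values, the counts were 1 for lin+ late wounds against day 0, 9 for lin- late wounds against day 0, 114 for lin+ day 6 against day 0, 292 for lin- day 6 against day 0, 128 for lin+ late wounds against day 6, 315 for lin- late wounds against day 6, 16 for lin+ against lin- in unwounded skin, 5 for lin+ against lin- in wounds, 6 for lineage difference in wounds against unwounded skin. With log2 values averaged over cells, the counts were 1062 for lin+ late wounds against day 0, 1110 for lin- late wounds against day 0, 0 for lin+ day 6 against day 0, 1 for lin- day 6 against day 0, 88 for lin+ late wounds against day 6, 143 for lin- late wounds against day 6, 11 for lin+ against lin- in unwounded skin, 82 for lin+ against lin- in wounds, 0 for lineage difference in wounds against unwounded skin. With cells thinned to 500000 reads, the counts were 3 for lin+ late wounds against day 0, 12 for lin- late wounds against day 0, 2 for lin+ day 6 against day 0, 1 for lin- day 6 against day 0, 1 for lin+ late wounds against day 6, 1 for lin- late wounds against day 6, 20 for lin+ against lin- in unwounded skin, 1 for lineage difference in wounds against unwounded skin. With IFE-B cells alone, the counts were 16 for lin+ late wounds against day 0, 1 for lin- day 6 against day 0, 7 for lin- late wounds against day 6, 6 for lin+ against lin- in unwounded skin, 0 for lin+ against lin- in wounds, 0 for lineage difference in wounds against unwounded skin. Without the replicate block (batch for the days, mouse set for the lineages), the counts were 0 for lin+ late wounds against day 0, 0 for lin- late wounds against day 0, 0 for lin+ day 6 against day 0, 0 for lin- day 6 against day 0, 0 for lin+ late wounds against day 6, 0 for lin- late wounds against day 6, 5 for lineage difference in wounds against unwounded skin. With edgeR on summed reads, the counts were 1 for lin+ late wounds against day 0, 3 for lin- late wounds against day 0, 4 for lin- day 6 against day 0, 11 for lin+ against lin- in unwounded skin, 4 for lin+ against lin- in wounds. With DESeq2 on summed reads, the counts were 1395 for lin+ late wounds against day 0, 1524 for lin- late wounds against day 0, 851 for lin+ day 6 against day 0, 763 for lin- day 6 against day 0, 619 for lin+ late wounds against day 6, 617 for lin- late wounds against day 6, 2367 for lin+ against lin- in unwounded skin, 758 for lin+ against lin- in wounds, 1547 for lineage difference in wounds against unwounded skin. Without cells with a Ptprc read, the counts were 7 for lin- late wounds against day 0. Without median-of-ratios scaling, the counts were 0 for lin+ day 6 against day 0, 1 for lin+ late wounds against day 6. With all 684 annotated cells, a setting chosen after seeing the data, the counts were 0 for lin+ day 6 against day 0, 4 for lin- day 6 against day 0, 4 for lin- late wounds against day 6. Leaving out 1 mouse set at a time gave 0 to 337 for lin+ late wounds against day 0, 0 to 189 for lin- late wounds against day 0, 0 to 17 for lin+ day 6 against day 0, 1 to 14 for lin- day 6 against day 0, 1 to 2 for lin+ late wounds against day 6, 1 to 2 for lin- late wounds against day 6, 14 to 482 for lin+ against lin- in unwounded skin, 8 to 41 for lin+ against lin- in wounds, 0 to 237 for lineage difference in wounds against unwounded skin. The counts of 337, 189, 17, 14, 482 and 237 came without replicate 2 of day 0 and that of 41 without replicate 1 of day 0, and either leaves fewer samples in the fit. Without the 5 cells high in melanocyte genes, a setting chosen after seeing the data, the count was 1 for lineage difference in wounds against unwounded skin. The replicate block changed no call of a member. By median over cells in place of the mean, uHF-I exceeded OB by 1.45 for S100a11 and by 5.68 for S100a14, in 7 and in 6 of 7 mouse sets. Over the alternatives the adjusted p of Ivl in unwounded skin ran from 4.55e-11 (DESeq2) to 0.552 and that of Defb6 in wounds from 7.01e-05 (DESeq2) to 0.596, and neither passed without the replicate block (0.104 and 0.082). The cause of these changes was not tested. Day 6 has 1 set per lineage and S100a8 reads came from 13 cells, which limits both.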
